A study of Mus musculus with 45 samples.

Results

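Gene expression in the nucleus accumbens was compared between mice that drank alcohol and mice that drank water while both received vehicle injections, with 11 libraries in each group, 22 of the 45 libraries in the series. Membership followed the sample labels for fluid and injection alone, so no measured value chose the libraries. All 45 animals were female mice of the HDID-1 line, a line bred for high blood alcohol after a limited period of drinking in the dark, from selection generation S35.G37. Every mouse, water drinkers included, carried the same pair of viruses in the nucleus accumbens on both sides, 0.5 uL of rAAV2/5-CMV-Cre-GFP and 0.5 uL of rAAV2-hSyn-DIO-hM3Dq-mCherry. The first expresses Cre recombinase and GFP from the general CMV promoter. The second expresses hM3Dq, an engineered muscarinic receptor, from the neuronal synapsin promoter in cells that also hold Cre. Mice were housed singly and had daily drinking sessions for 6 weeks. The vehicle groups received vehicle in all 6 weeks and no clozapine N-oxide (CNO), the drug that activates hM3Dq. The remaining 12 alcohol and 11 water mice received CNO at 1 mg/kg in weeks 2 to 5 and vehicle in weeks 1 and 6. The labels do not give the age of the mice or the alcohol concentration.

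The nucleus accumbens is a part of the ventral striatum that takes part in reward and motivation. Most of its neurons are GABA-releasing medium spiny neurons, which fall into a class with D1 and a class with D2 dopamine receptors, and they work beside interneurons, astrocytes, myelinating oligodendrocytes and microglia. Alcohol acts on ligand-gated channels for GABA, glycine and glutamate, among other targets, and immune signalling in brain has often been studied in alcohol drinkers. A tissue punch holds all of these cells, so fewer cells of a type and less RNA per cell cannot be told apart in these libraries.

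Each alcohol library had between 26.8 M and 38.3 M reads in genes, and each water library between 28.3 M and 38.3 M. Neither that total nor the number of genes detected, nor the shares of reads outside genes, ambiguous or not uniquely aligned, passed a two-sided permutation test adjusted over the 5 measures (smallest adjusted p = 0.399). The libraries carried the markers of the region. For the dopamine receptor Drd1 the median level was 255 CPM (counts scaled to library size) in alcohol and 252 CPM in water mice, and for Drd2 it was 123 and 125 CPM. The 3 libraries that stand apart are alcohol vehicle replicates 5 and 10, which are rich in MHC class II and antibody-cell transcripts, and water vehicle replicate 9, which is high in interferon-induced transcripts. Results that rest on them are given with and without them.

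No gene passed the test of alcohol against water. Of 15852 genes tested with edgeR's quasi-likelihood test, 0 had a Benjamini-Hochberg adjusted p under 0.05 (0% called, smallest adjusted p = 0.15). At an unadjusted p under 0.05, 942 genes (5.94%) were higher and 384 (2.42%) lower in alcohol mice, 8.36% of all genes together. Positive log2 fold changes made up 50.8% of all genes. An exact rank-sum test, which a single extreme library cannot dominate, gave 800 genes (5.05%) at an unadjusted p under 0.05 and 0 after adjustment. In 0 of the 15852 genes were the groups free of overlap. DESeq2 called 3 genes, Serpina3g, Acp5 and Ciita, and limma's voom with sample weights called 0. In the description that follows, no difference passed the adjusted test with edgeR unless this is said, and a member with an unadjusted p under 0.05 is to be read against the 5.94% of all genes that were higher and the 2.42% that were lower.

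Of the 10 higher genes with the smallest p, 4 are in the MHC class II list, H2-Ab1, Ciita, H2-Eb1 and H2-Aa. MHC class II molecules show peptides to helper T cells. In mice the classical chains are H2-Aa, H2-Ab1 and H2-Eb1, the invariant chain Cd74 escorts them, H2-DMa and H2-DMb load the peptide and Ciita is the co-activator that switches their genes on. Ciita acts through factors bound at short promoter elements known as the X and Y boxes. Promoter stretches of 4 class II genes, all on chromosome 17 and from RefSeq (GRCm38.p6), are shown because the class II list had one of the highest medians of the comparison and these members held the searched letters. Each has 80 bases written 5′ to 3′ on the gene's strand, at chr17:34287844-34287923 (minus strand) for H2-Aa, chr17:34305756-34305835 (plus) for H2-Eb1, chr17:34153078-34153157 (plus) for H2-DMb1 and chr17:34238796-34238875 (plus) for H2-Ob. Capitals mark matches to the searched letters, AAC followed by any 2 bases and ATGATG for the X box, and TGATTGG for the Y box.
H2-Aa: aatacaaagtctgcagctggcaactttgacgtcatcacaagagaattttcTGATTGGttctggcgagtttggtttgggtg
H2-Eb1: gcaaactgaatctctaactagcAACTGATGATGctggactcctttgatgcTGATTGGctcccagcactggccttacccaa
H2-DMb1: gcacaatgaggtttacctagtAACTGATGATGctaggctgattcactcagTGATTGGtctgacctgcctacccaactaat
H2-Ob: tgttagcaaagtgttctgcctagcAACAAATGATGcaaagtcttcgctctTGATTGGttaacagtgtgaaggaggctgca

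Both strands of all 32851 RefSeq promoter windows of the same length were searched, and the marked matches do not overlap each other. The Y box letters were found in 7.82% of the windows and the X box letters in 0.137%. Of 7 class II list genes with an entry, 6 held the Y box letters and 4 held the X box letters. A match is a description of the sequence, and these libraries do not measure binding.

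All 10 genes of the MHC class II list were higher in alcohol mice on the mean, with a median log2 fold change of 1.38 against 0.0017 over all genes, and 9 had an unadjusted p under 0.05. H2-Aa ran from 0.746 to 263 CPM in alcohol mice with a median of 2.04, and from 0.678 to 11.2 CPM in water mice with a median of 1.34. This gave a log2 fold change of 3.28 ± 0.80 (SE, edgeR adjusted p = 0.224). The high values were those of 2 animals. Alcohol vehicle replicate 5 had 263 CPM and replicate 10 had 62.1 CPM, while the other 9 alcohol libraries lay between 0.746 and 8.93 CPM, inside the range of the water libraries. H2-Ab1 at 173 and 43.6 CPM, H2-Eb1 at 203 and 43.9 CPM and Cd74 at 892 and 210 CPM were likewise first and second of all 22 libraries in those mice. Without the 3 libraries the median of the class II list was -0.0046 and 5 of 10 genes were higher. The MHC genes are polymorphic and several are near copies, so how the authors' counting split shared reads between them is uncertain.

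Ciita was the 1 class II gene of the 10 with an exact rank-sum p under 0.05. It ran from 1.41 to 18.2 CPM with a median of 2.13 in alcohol mice and from 0.82 to 2.9 CPM with a median of 1.5 in water mice. In 10 of 11 alcohol mice it lay above the water median, but the groups overlapped. Its log2 fold change was 1.31 ± 0.30 (SE, edgeR adjusted p = 0.224, exact rank-sum p = 0.0158, 0.896 after adjustment) and DESeq2 gave an adjusted p of 0.0486. Without the 3 libraries it was 0.56. The summed level of the class II list was also above the water median in 10 of 11 alcohol mice, with medians of 40.8 CPM in alcohol and 34.3 CPM in water mice.

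Slpi, a secreted inhibitor of leukocyte proteases, had the smallest p of the genes at or above a mean log2 CPM of 0. It ran from 0.376 to 65.2 CPM with a median of 0.886 in alcohol mice and from 0.124 to 2.36 CPM with a median of 0.441 in water mice. Replicate 5 at 65.2 CPM and replicate 10 at 9.26 CPM again lay above every other library. Its log2 fold change was 3.50 ± 0.76 (SE, edgeR adjusted p = 0.19), and 0.37 without the 3 libraries. H2-Ea-ps, Gm12250 (annotated as a processed pseudogene), Gbp4 (an interferon-inducible GTPase), Irf4 (a transcription factor of B and plasma cells) and Ltb (lymphotoxin beta) complete the 10 genes. Their log2 fold changes were 3.71, 2.29, 2.09, 2.09 and 1.78 and all 5 were highest in replicate 5 and next highest in replicate 10. The genes that DESeq2 called beside Ciita were named after their values were seen. They were Serpina3g, a serine protease inhibitor, and Acp5, an acid phosphatase of macrophages and osteoclasts. Their log2 fold changes by DESeq2, not edgeR, were 3.37 and 2.57 (DESeq2 adjusted p = 0.00117 and 0.0165). Levels by library are not given for these genes, so how far replicates 5 and 10 carry the calls is not shown.

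**Figure D1:**
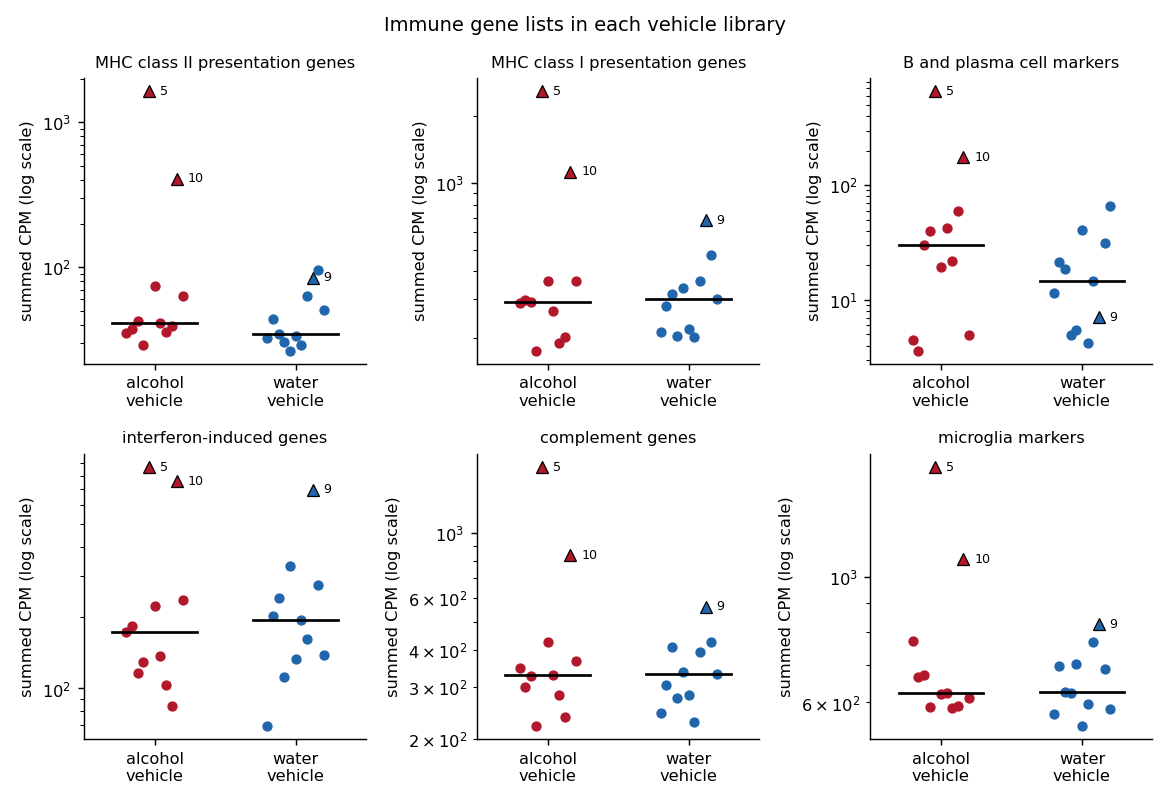
Summed CPM of 6 immune gene lists (log axis) in each of the 11 alcohol vehicle and 11 water vehicle libraries, with a bar at the group median and triangles for alcohol replicates 5 and 10 and water replicate 9. The MHC class II sum was 1633 and 407 CPM in alcohol replicates 5 and 10 and between 29.0 and 74.2 CPM in the other 9 alcohol mice.

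Other immune groups were also highest in these 2 alcohol mice. Of 16 listed B and plasma cell markers, 9 had a row in the deposited counts and 6 of these passed the filter on low counts. All 6 were higher on the mean (list median 2.41). That median was 0.24 without the 3 libraries, with 5 of 6 positive and 0 at an unadjusted p under 0.05. Taken from group medians the differences had a median of 0.80 over the 6 genes, and 0 had a rank-sum p under 0.05. Jchain, the joining chain of secreted IgA and IgM, reached 565 CPM in replicate 5 and 145 CPM in replicate 10. The other 9 alcohol libraries ranged from 0.532 to 52.0 CPM, and the water libraries from 1.24 to 56.4 CPM, so Jchain varied widely in both groups. Its medians were 25.6 CPM in alcohol and 10.4 CPM in water mice. Mzb1, a chaperone of antibody assembly, and Cd79a, a part of the B cell receptor, had log2 fold changes of 2.66 ± 0.70 and 2.44 ± 0.64 (SE, edgeR adjusted p = 0.224 for each). The summed level of the list ran from 3.60 to 658 CPM in alcohol and from 4.18 to 66.0 CPM in water mice. The 16 listed markers also included genes of the antibody heavy and light chains, for which no values are given here.

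MHC class I genes, which present peptides made inside the cell, were higher in 12 of 12 members on the mean, with a median log2 fold change of 0.88 and 9 at an unadjusted p under 0.05. Taken from group medians the differences had a median of -0.05 over the 12 genes, and without the 3 libraries the list median was -0.06. Psmb9, a subunit of the immunoproteasome, shows the contrast. On the mean it differed by a log2 fold change of 1.45 ± 0.46 (SE, edgeR adjusted p = 0.363), yet its medians were 3.23 CPM in alcohol and 3.48 CPM in water mice and only 4 of 11 alcohol libraries lay above the water median.

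Complement genes, whose products tag cells and synapses for removal, were higher in 15 of 16 members with a list median of 0.46, and of 0.035 without the 3 libraries. C3, the central component, had medians of 3.95 CPM in alcohol and 4.59 CPM in water mice. Its alcohol maximum of 309 CPM was in replicate 5. C1s1, a protease of the classical pathway, had medians of 0.783 and 0.91 CPM, again lower in alcohol mice, while its log2 fold change of means was 1.90 ± 0.49 (SE, edgeR adjusted p = 0.224).

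Genes of reactive astrocytes and of innate immune signalling also had lower list medians without the 3 libraries. Of 13 reactive astrocyte genes tested, 13 were higher on the mean with a median of 0.48 and 8 at an unadjusted p under 0.05, and the median was 0.027 without the 3 libraries. Cp, the copper oxidase ceruloplasmin, had 49.1 and 19.3 CPM in replicates 5 and 10 against 9.49 to 13.4 CPM in the other 9 alcohol and 7.01 to 12.8 CPM in the water mice. Gfap, the astrocyte filament protein, had similar medians of 111 CPM in alcohol and 116 CPM in water mice. The innate immune signalling list had a median of 0.18 over 16 genes, and of 0.0032 without the 3 libraries. Its member Cybb, the catalytic subunit of the phagocyte NADPH oxidase, had medians of 2.38 and 1.99 CPM and a log2 fold change of 1.65 ± 0.47 (SE, edgeR adjusted p = 0.271). The microglia list had a median of 0.15 over 15 genes, and -0.03 without the 3 libraries.

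Interferon-induced genes, which limit viral replication, were high in both alcohol libraries and in 1 water library. Their summed level was 868 CPM in alcohol replicate 5, 756 CPM in replicate 10 and 696 CPM in water replicate 9. The other 9 alcohol mice lay between 84.4 and 236 CPM and the other water mice reached 330 CPM. The list median was 0.16 with 14 of 20 genes positive over all libraries, and -0.30 with 1 of 20 positive without the 3 libraries. Mx2, of a family of antiviral GTPases but annotated as a polymorphic pseudogene, was highest in water replicate 9 at 31.2 CPM. Alcohol mice had 8.51 CPM at most. For Mx2 the log2 fold change was -0.85 ± 0.33 (SE, edgeR adjusted p = 0.479). Its medians were 3.88 CPM in alcohol and 4.21 CPM in water mice.

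Over all genes, those higher in alcohol mice often had their maximum in the same animal. Of the 942 genes higher at an unadjusted p under 0.05, 449 (47.7%) had their highest value of the 22 in alcohol replicate 5, against 14.3% of all genes tested. A high value in that library raises the alcohol mean, so part of this contrast follows from how the 942 were chosen. Among the 123 genes that differed more than 2-fold on the mean, 118 were highest there. Of the 942 genes, 398 had an unadjusted p under 0.05 in the same direction without the 3 libraries, and of the 384 lower genes 208 did. Without the 3 libraries, 796 of 15895 genes (5.01%) were higher and 503 (3.16%) lower at an unadjusted p under 0.05, together 8.17%, and 0 passed the adjustment.

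Genes named by the smallest exact rank-sum p had mostly small differences, with most alcohol mice on the same side of the water median. The test ranks genes by how well the groups separate in these same libraries. Counts of mice above or below the water mice therefore follow in part from how the genes were chosen. Over all genes 800 (5.05%) had an exact rank-sum p under 0.05, near the share this threshold allows where no gene differs. Alas2, the enzyme that starts haem synthesis in red cell precursors, ran from 0.886 to 2.22 CPM with a median of 1.64 in alcohol mice and from 0.565 to 1.35 CPM with a median of 0.865 in water mice. All 11 alcohol mice lay above the water median and 7 above every water mouse. Its log2 fold change was 0.75 ± 0.22 (SE, edgeR adjusted p = 0.297, exact rank-sum p = 0.000394, 0.75 after adjustment), and 0.85 without the 3 libraries. In the CNO mice, which share no library with these, it was 0.51 ± 0.21 (edgeR adjusted p = 0.738). The other 4 listed erythroid genes, all globins, did not pass the filter on low counts.

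Fat4, a giant cadherin of planar cell polarity, ran from 14.3 to 19.5 CPM with a median of 16.1 in alcohol mice and from 11.0 to 15.3 CPM with a median of 13.5 in water mice. All 11 alcohol mice lay above the water median. The log2 fold change was 0.29 ± 0.08 (SE, edgeR adjusted p = 0.224) under vehicle and 0.07 under CNO. Mtr, methionine synthase, had medians of 19.9 and 18.2 CPM, a log2 fold change of 0.20 under vehicle and of 0.15 under CNO. Trappc10, a subunit of a vesicle tethering complex, had medians of 134 and 127 CPM, with 8 of 11 alcohol mice above every water mouse. It differed by 0.08 under vehicle and by 0.06 under CNO. Polh, a DNA polymerase that copies past ultraviolet damage, and 2610507B11Rik completed the 6 higher genes at 0.19 and 0.08.

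The 6 lower genes with the smallest rank-sum p were Zbtb8a, Nap1l1, Dcaf11, Btbd17, Tex264 and Exoc3l. Nap1l1, a histone chaperone, had the smallest, an exact rank-sum p of 0.00019. It ran from 142 to 159 CPM with a median of 148 in alcohol mice and from 151 to 166 CPM with a median of 154 in water mice, and 10 of 11 alcohol mice lay below every water mouse. Its log2 fold change was -0.09 ± 0.03 (SE, edgeR adjusted p = 0.306) under vehicle and -0.06 under CNO. Zbtb8a, a zinc finger protein, had medians of 7.75 and 9.14 CPM with all 11 alcohol mice below the water median, at -0.28 under vehicle and 0.04 under CNO. Btbd17 had medians of 12.3 and 14.2 CPM, with 10 of 11 alcohol mice below every water mouse, at -0.17 and -0.12. Dcaf11, a substrate receptor of a ubiquitin ligase, had medians of 87.0 and 92.2 CPM, at -0.10 and 0.05. Tex264, a receptor for autophagy of the endoplasmic reticulum, and Exoc3l stood at -0.07 and -0.19 under vehicle. None of the 12 passed the rank-sum test after adjustment over all genes, where the smallest adjusted p was 0.75.

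**Figure D2:**
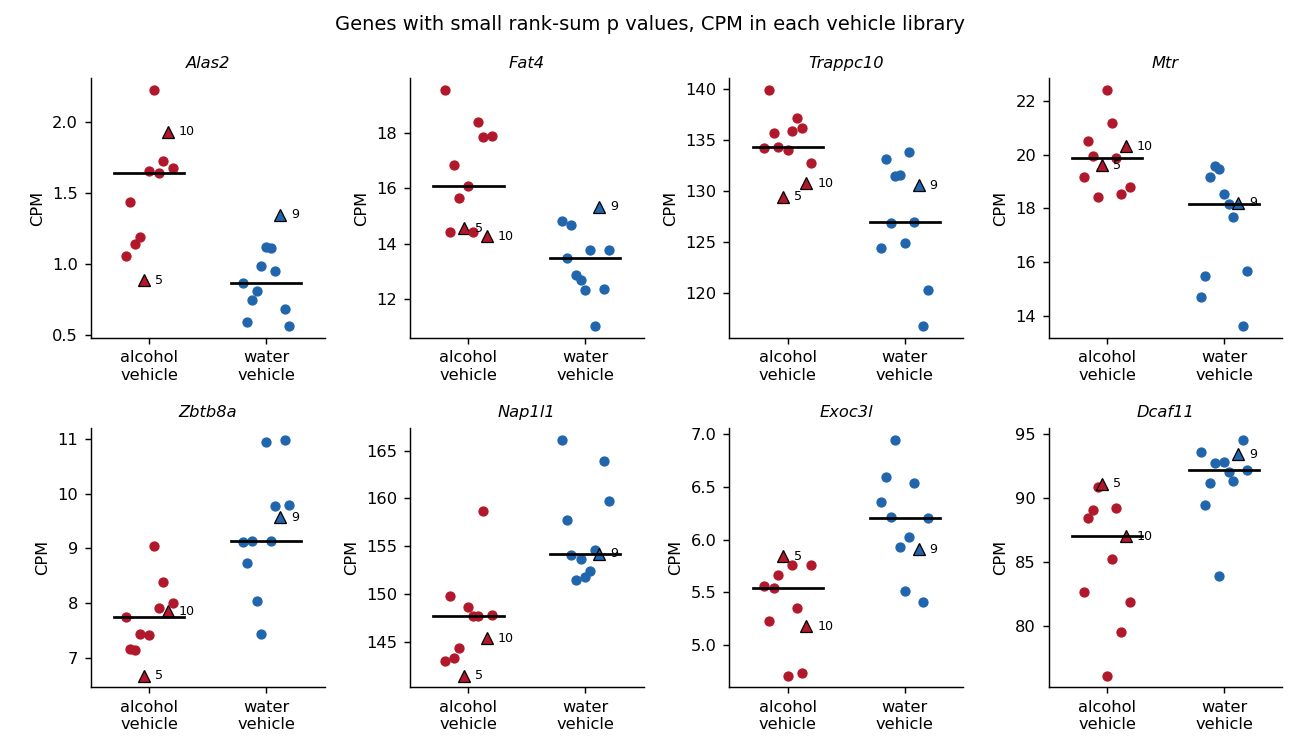
CPM of 8 genes with small rank-sum p values in each alcohol vehicle and water vehicle library (linear axes that do not start at 0, n = 11 each), with bars at the group medians. The groups overlap in all 8 panels, and the triangles mark alcohol replicates 5 and 10 and water replicate 9.

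Of the 10 lower genes with the smallest edgeR p, Gpx6, a glutathione peroxidase, and Prg4, the lubricating proteoglycan lubricin, had the most negative log2 fold changes, -0.46 ± 0.13 and -0.46 ± 0.14 (SE, edgeR adjusted p = 0.271 and 0.306). Gpx6 had medians of 1.44 CPM in alcohol and 1.83 CPM in water mice, and 8 of 11 alcohol mice lay below every water mouse. In the CNO mice Gpx6 stood at -0.002. The others were Exoc3l, Zbtb8a, Btbd17, Nap1l1, Hgh1, Fam104a, Ppp2r3d and Zfp358, between -0.28 and -0.09. No lower gene with an unadjusted p under 0.05 differed by more than 2-fold.

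Myelin genes had small positive values in alcohol mice, and none passed the test. Of 15 oligodendrocyte markers, 15 were positive with a median of 0.16, 9 had an unadjusted p under 0.05 and 2 a rank-sum p under 0.05. Cldn11, the claudin of the tight junctions between myelin layers, ran from 106 to 168 CPM with a median of 132 in alcohol mice and from 91.7 to 136 CPM with a median of 109 in water mice. In 10 of 11 alcohol mice it lay above the water median. The log2 fold change of Cldn11 was 0.26 ± 0.07 (SE, edgeR adjusted p = 0.271) under vehicle and -0.07 ± 0.07 under CNO. Ermn, a cytoskeletal protein of myelinating cells, had medians of 74.2 and 64.6 CPM and a log2 fold change of 0.22.

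The list median of the myelin genes stayed positive, between 0.11 and 0.20, under all 33 alternative settings, which share most of their libraries. Without the 3 libraries it was 0.11 with 14 of 15 positive, and 2 rather than 9 had an unadjusted p under 0.05. Alcohol replicates 5 and 10 ranked 4 and 3 of the 22 libraries in the summed list. In the CNO mice the list median was -0.06 with 1 of 15 positive, but the interaction was not called for any gene (smallest edgeR adjusted p = 0.983). Summed oligodendrocyte markers ran from 4109 to 6921 CPM in alcohol and from 3739 to 6057 CPM in water mice, so the groups overlapped. These 15 genes share cells and punches, and how much white matter a punch took was not tested.

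Oligodendrocyte precursor markers were positive in 7 of 9 with a median of 0.07, and 3 had an unadjusted p under 0.05. The 2 with the smallest p are given. Pdgfra, the growth factor receptor of precursors, had medians of 81.4 and 72.2 CPM and a log2 fold change of 0.17 ± 0.05 (SE, edgeR adjusted p = 0.363). Neu4, a sialidase, had 13.1 and 11.9 CPM, at 0.17. Of 20 genes of perineuronal matrix and its proteases, 15 were positive with a median of 0.09, 5 had an unadjusted p under 0.05 and all 5 of those were higher. Vcan, the proteoglycan versican, ran from 32.1 to 49.7 CPM with a median of 40.9 in alcohol mice and from 31.4 to 40.2 CPM with a median of 35.5 in water mice. For Vcan the log2 fold change was 0.21 ± 0.06 (SE, edgeR adjusted p = 0.306), and 10 of 11 alcohol mice lay above the water median. Adamts4, a protease that cuts such proteoglycans, had medians of 18.6 and 14.7 CPM, at 0.22.

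**Figure D3:**
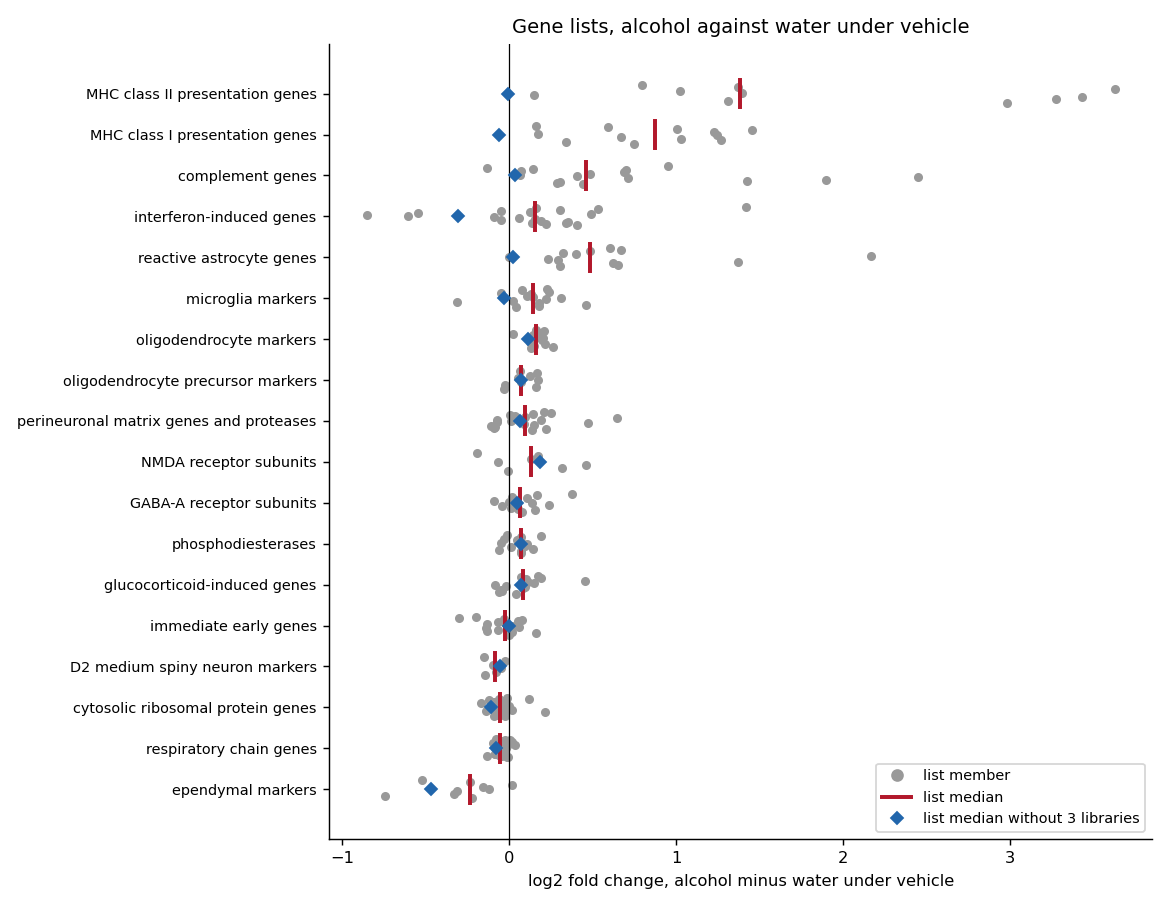
Log2 fold change of alcohol minus water under vehicle for the members of 18 gene lists (grey points), with the list median (red bar) and the median without 3 libraries (blue diamond). The blue diamond of MHC class II genes lies at -0.0046 against a red bar at 1.38, whereas that of oligodendrocyte markers lies at 0.11 against 0.16.

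None of the receptor and channel genes on which alcohol is known to act passed the test. Of 14 GABA-A receptor subunits, 11 were positive with a median of 0.07, and Gabra2, the alpha-2 subunit, had medians of 153 and 137 CPM and a log2 fold change of 0.16 ± 0.08 (SE, edgeR adjusted p = 0.588). Of 7 NMDA receptor subunits, 4 were positive with a median of 0.13 and 2 had an unadjusted p under 0.05, and without the 3 libraries 6 were positive with a median of 0.19 and 3 had such a p. Grin2b, the GluN2B subunit, ran from 50.1 to 105 CPM with a median of 80.1 in alcohol mice and from 18.9 to 95.6 CPM with a median of 53.0 in water mice. Its log2 fold change was 0.46 ± 0.20 (SE, edgeR adjusted p = 0.543, exact rank-sum p = 0.0473, 0.896 after adjustment) and 0.31 under CNO. Of the 11 water mice, 5 lay below every alcohol mouse, and 2 of 11 alcohol mice lay above every water mouse. Grin2a, the GluN2A subunit, had medians of 17.9 and 13.7 CPM, at 0.32.

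Of the 5 glycine receptor genes, counted with their anchor gephyrin, 5 were positive, from 0.03 to 0.75 with a median of 0.05, and 2 had an unadjusted p under 0.05. That median was 0.02 without the 3 libraries, where 0 had such a p. The highest value was that of Glra1, a gene with few reads. It ran from 0.066 to 0.80 CPM in alcohol and from 0.033 to 0.43 CPM in water mice. Glra3, the alpha-3 subunit, stood at 0.26. Of 20 potassium channels 10 were positive, the list ran from -0.29 to 0.77 and 3 had an unadjusted p under 0.05. Kcnma1, the large-conductance calcium-activated channel that alcohol potentiates, had medians of 97.2 and 86.2 CPM and a log2 fold change of 0.18 ± 0.08 (SE, edgeR adjusted p = 0.543). Kcnq3, a subunit of the M current, stood at 0.23. Oprm1, the mu opioid receptor, had medians of 13.9 and 11.2 CPM, at 0.25, and its unadjusted p of 0.051 missed 0.05.

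Dopamine receptors and monoamine genes were positive in 10 of 25 with a median of -0.0043. Of these, 8.0% had an unadjusted p under 0.05, near the 8.36% of all genes. The 2 with the smallest p, Slc18a2 and Adra1a, had like values in both drug conditions. Slc18a2, the vesicular monoamine transporter, had medians of 6.05 CPM in alcohol and 7.12 CPM in water mice, with a log2 fold change of -0.28 ± 0.10 under vehicle and -0.24 ± 0.10 under CNO (SE, edgeR adjusted p = 0.425 and 0.738). Adra1a, the alpha-1A adrenergic receptor, had medians of 15.2 and 12.0 CPM, with 0.23 ± 0.09 and 0.19 ± 0.09 (edgeR adjusted p = 0.461 and 0.738). The muscarinic and nicotinic receptors were positive in 5 of 12 and negative in 7, with a median of -0.08 and a lowest value of -0.46. The 2 with the smallest p, the muscarinic receptors Chrm5 and Chrm2, stood at 0.37 and 0.27 under vehicle, with medians of 4.85 against 3.08 CPM and 5.89 against 4.32 CPM. Markers of D2 medium spiny neurons were negative in 6 of 6 with a median of -0.08, and in 5 of 6 with a median of -0.05 without the 3 libraries. Their summed level was lowest of the 22 libraries in alcohol replicate 5. Adora2a, the adenosine receptor of these neurons, had medians of 278 CPM in alcohol and 302 CPM in water mice, at -0.15 ± 0.07 (SE, edgeR adjusted p = 0.591). In the CNO mice 4 of these 6 D2 markers were positive with a median of 0.05. Pan medium spiny neuron markers were negative in 8 of 11 with a median of -0.03 under vehicle. Without the 3 libraries 5 of 11 were negative and the median was 0.0018.

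Genes that metabolise alcohol did not differ at an unadjusted p under 0.05 in any of 11 tested members, and their median was 0.0025. Aldh3a2, a fatty aldehyde dehydrogenase, was the nearest, at 0.06 with medians of 55.3 and 53.8 CPM. Immediate early genes, which neurons switch on when active, had 7 of 17 positive with a median of -0.03, and 0 at an unadjusted p under 0.05. Fos, the best known of them, had medians of 14.5 and 11.8 CPM in widely overlapping groups, with a log2 fold change of 0.06 ± 0.21 (SE, edgeR adjusted p = 0.962). Among chromatin enzymes, Hdac4 and Hdac5, class IIa histone deacetylases, went opposite ways. Hdac4 had medians of 29.6 and 22.5 CPM and stood at 0.32 ± 0.10, and Hdac5 had 201 and 211 CPM and stood at -0.10 ± 0.04 (SE, edgeR adjusted p = 0.366 and 0.479). Over the 22 chromatin enzymes the median was 0.03 with 13 positive, and 0.06 with 16 positive without the 3 libraries. Neurotrophic factors and receptors were positive in 6 of 14 with a median of -0.0055, and their 2 members with the smallest p were Ntrk2, the receptor of brain-derived neurotrophic factor, at 0.14 and Ptprz1, a receptor phosphatase of glia, at 0.17. Phosphodiesterases were positive in 10 of 14 with a median of 0.07, and Pde8a, which cuts cyclic AMP, stood at 0.19.

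Genes induced by glucocorticoids, the stress hormones, included 10 of 15 positive members with a median of 0.09, against -0.10 and 1 of 15 in the CNO mice. Plin4, a lipid droplet coat protein, ran from 6.76 to 13.8 CPM with a median of 11.7 in alcohol mice and from 4.50 to 10.7 CPM with a median of 8.21 in water mice. In 8 of 11 alcohol mice it lay above every water mouse. For Plin4 the log2 fold change was 0.45 ± 0.16 (SE, edgeR adjusted p = 0.42, exact rank-sum p = 0.00104, 0.75 after adjustment) and was -0.22 ± 0.15 under CNO. The interaction, 0.68 ± 0.22, had an unadjusted p of 0.00346 and an edgeR adjusted p of 0.983. Sult1a1, a sulfotransferase, had 7.83 and 7.11 CPM, at 0.19. Crhr2, a receptor for urocortins of the stress system, had medians of 2.65 and 3.35 CPM, at -0.30.

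**Figure D4:**
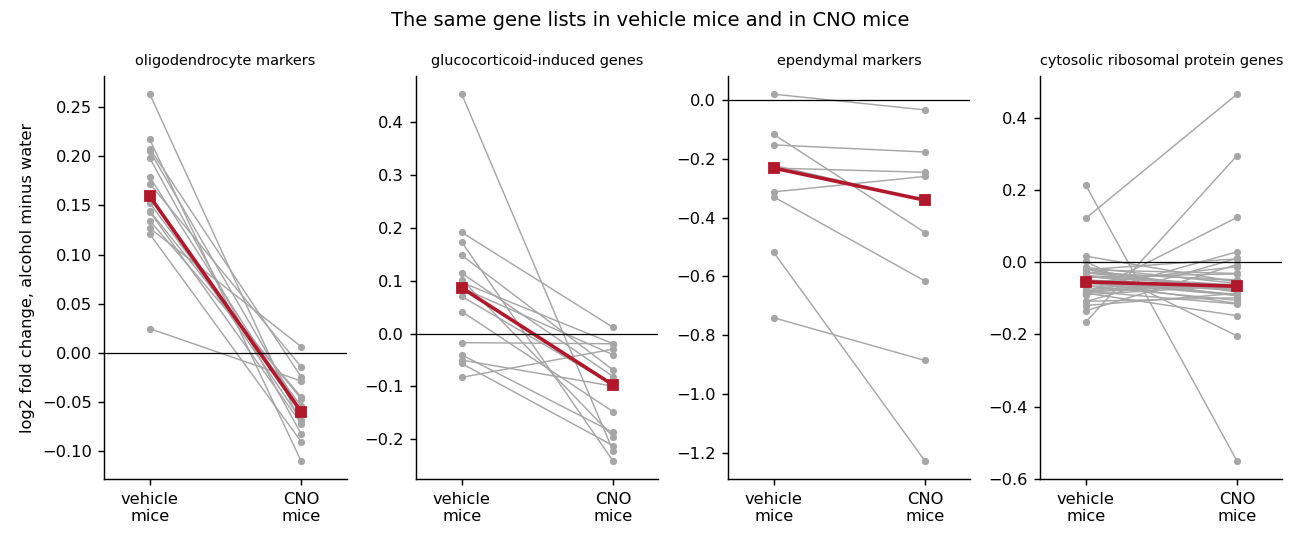
Log2 fold change of alcohol minus water in vehicle mice and in CNO mice for the members of 4 gene lists (grey lines, 1 per gene) and their median (red squares), each panel on its own axis. The oligodendrocyte median is 0.16 in vehicle and -0.06 in CNO mice, and the ependymal median is -0.23 and -0.34.

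Ependymal genes, of the ciliated cells that line the ventricles, were negative in 8 of 9 with a median of -0.23, and in 9 of 9 with a median of -0.34 in the CNO mice. Under vehicle 0 of the 9 had an unadjusted p under 0.05. With the 3 libraries left out, 9 of 9 were negative with a median of -0.46, and 4 had an unadjusted p under 0.05. Ccdc153 had medians of 0.914 CPM in alcohol and 1.70 CPM in water mice and a log2 fold change of -0.74 ± 0.40 (SE, edgeR adjusted p = 0.62). The summed list ran from 14.2 to 40.6 CPM in alcohol and from 14.5 to 39.2 CPM in water mice, so both groups held libraries with few and with many such transcripts, and how much ventricle wall the punches took was not tested.

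Genes of the ribosome and of mitochondrial respiration had mostly small negative values, and none passed the test. Of 40 cytosolic ribosomal protein genes 36 were below 0 (median -0.05), as were 37 of 40 genes of the respiratory chain (median -0.05). At an unadjusted p under 0.05 there were 0 ribosomal and 2 respiratory genes, and Ndufs7, a subunit of complex I, was the first of these with medians of 75.7 and 80.9 CPM, at -0.10 ± 0.03 (SE, edgeR adjusted p = 0.44). In the CNO mice the medians were -0.07 and -0.05. They were -0.11 without the 3 libraries, with 37 of 40 ribosomal genes negative, and -0.08 with 39 of 40 respiratory genes negative. Both list medians were negative under all 33 alternative settings. Ddit3, a transcription factor of endoplasmic reticulum stress, had medians of 29.6 and 32.6 CPM, at -0.14. Many ribosomal protein genes have processed copies in the genome, so their counts are uncertain where reads were shared.

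Further cell class and pathway lists had no member that passed the test. Of 16 listed T and NK cell markers, 13 had a row in the deposited counts and 4 of these passed the filter on low counts. Those 4 had a median of 0.52, and of -0.25 without the 3 libraries. Endothelial markers had a median of 0.10 with 9 of 11 positive, and of 0.11 without the 3 libraries. Markers of cortical glutamatergic neurons, which lie outside the nucleus accumbens, had a median of -0.06 with 3 of 11 positive. It was -0.20 without the 3 libraries, and -0.35 with 10 of 11 negative in the CNO mice. Their summed level ran from 198 to 852 CPM in alcohol and from 260 to 775 CPM in water mice. Cholinergic interneuron markers were positive in 6 of 7 with a median of 0.05, and in 7 of 7 with a median of 0.24 in the CNO mice. The D1 medium spiny neuron markers were positive in 2 of 8 with a median of -0.01.

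Among stress and metabolic pathways, chaperones of the endoplasmic reticulum were positive in 13 of 15 with a median of 0.05, and in 6 of 15 without the 3 libraries. Cholesterol synthesis genes were positive in 16 of 19 with a median of 0.04, in 12 of 19 without the 3 libraries, and in 4 of 19 in the CNO mice. Heat shock genes were positive in 7 of 12 with a median of 0.0021, in 4 of 12 without the 3 libraries, and in 1 of 12 in the CNO mice, where 6 had an unadjusted p under 0.05. Sodium and calcium channels were positive in 16 of 23 with a median of 0.02, and 0 had an unadjusted p under 0.05. Without the 3 libraries 19 of 23 were positive with a median of 0.06, and 5 were higher at an unadjusted p under 0.05.

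Fold changes over all genes differed with gene length. When 15237 genes with a position in the annotation were put into 5 equal bins by the span of the gene, the median log2 fold change went from -0.03 in the shortest bin to 0.04 in the longest, and the share of positive genes from 33.8% to 70.4%. In the CNO mice the same medians went from -0.02 to 0.02 and the shares from 41.7% to 62.9%. Genes higher at an unadjusted p under 0.05 numbered 95 in the shortest and 336 in the longest bin, and lower genes 131 and 26. The shortest bin held 34 of 40 ribosomal protein genes, and the longest held 10 of 14 GABA-A receptor subunits and 10 of 20 potassium channels. The part of gene length in the list values was not tested.

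**Figure D5:**
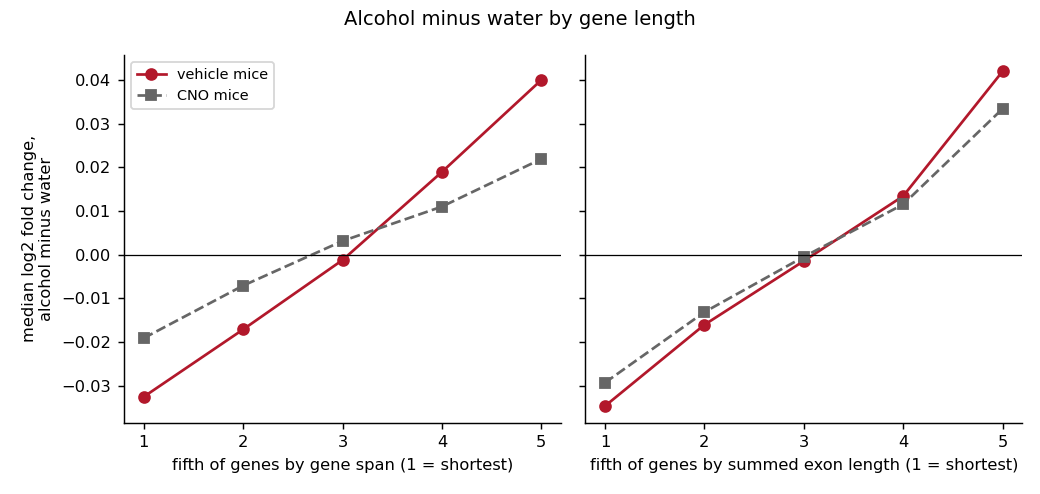
Median log2 fold change of alcohol minus water for genes in 5 equal bins by gene span (left) and by summed exon length (right), in vehicle mice (red circles) and in CNO mice (grey squares). Both lines in each panel go from below 0 in the shortest bin to above 0 in the longest, from -0.03 to 0.04 by gene span in vehicle mice.

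Across drug conditions, the 942 genes higher at an unadjusted p under 0.05 in vehicle mice were positive in the CNO mice in 730 cases (77.5%), and the 384 lower genes were negative there in 269 (70.1%). Over all genes tested 58.3% had the same direction. In the same direction and at an unadjusted p under 0.05 in the CNO mice were 53 of the 942 (5.63%) and 45 of the 384 (11.7%). Over all genes tested, with both directions pooled, the same held for 783 of 15852 (4.94%). In the opposite direction at such a p were 2 of the 942, 4 of the 384 and 248 of all genes. By direction, the 5.63% stands beside 2.85% of all genes that were higher in the CNO mice. The 11.7% stands beside 3.66% that were lower. Alcohol against water in the CNO mice gave 0 genes at an edgeR adjusted p under 0.05 (smallest 0.478) and 1031 (6.5%) at an unadjusted p under 0.05, 451 (2.85%) higher and 580 (3.66%) lower. The interaction of drinking and drug gave 0 genes after adjustment and 496 (3.13%) at an unadjusted p under 0.05, so no gene was shown to differ between the drug conditions.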

How the data were processed

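RNA was extracted from nucleus accumbens punches (PureZol and Aurum kit) and sequenced from TruSeq libraries of 500 ng RNA, per the labels. The authors deposited counts, unnormalized whole reads for each gene symbol, in 1 file per mouse. Per the submitters' processing notes they used FastQC, STAR and HTSeq 0.9.1 with GRCm38 (mm10). The sources used here do not name the annotation, the strand setting or the counting mode. Without strand, overlapping and antisense genes cannot be told apart. HTSeq's 5 summary rows were kept out of library sizes and tests, and reads outside genes were 15.6% to 21.9% of uniquely aligned reads in the vehicle libraries.

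A filter on low counts (filterByExpr by group) kept 15852 of 24421 genes, which were scaled by TMM and fitted with edgeR 4.0.16 (R 4.3.3, quasi-likelihood, robust) over all 45 libraries with 1 coefficient per group, so that all groups share the estimate of spread. Called means a Benjamini-Hochberg adjusted p under 0.05. An SE is the fold change divided by the root of F. Levels are TMM-scaled CPM, and group medians were compared on log2(CPM + 0.1). Exact two-sided rank-sum tests and the permutation tests of library measures (100000 permutations, Python 3.11.15, scipy 1.17.1) used the 22 vehicle libraries. Alternatives used DESeq2 1.42.0 and limma 3.58.1. The scripts were tested on simulated data with known answers. Gene positions come from GENCODE M21, the same build.

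Each library is 1 mouse. Tube numbers in the titles run lower in alcohol than in water mice, so tube order and fluid cannot be told apart. S numbers were read as 8 blocks, an inference from the titles. Members, lists and tests were chosen with earlier results of these data known. Named genes are the 10 higher and 10 lower by edgeR p and the 6 and 6 by rank-sum p, at a mean log2 CPM of at least 0, the first of each list, and a fixed set of region and alcohol genes.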

Additional observations from a re-analysis of the deposited data

How the results depend on the processing

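The count of called genes was 0 in edgeR with every scaling, filter, covariate and left-out library run and in voom, and 3 with DESeq2, where Ciita passed. At an adjusted p under 0.1 the count was also 0 in the main edgeR fit. Other settings did reach 0.1. DESeq2 gave Irf4 an adjusted p of 0.0537. Over the 33 alternative settings the lowest adjusted p was 0.0835 for Slpi and for H2-Ea-ps, and 0.0935 for H2-Ab1. The count at an unadjusted p under 0.05, 1326, was 800 with the exact rank-sum test and lay between 999 and 1782 when 1 library was left out. Leaving out alcohol replicates 5 and 10 reversed H2-Eb1 (-0.22), H2-Aa (-0.14), Gm12250 (-0.14), Cd74 (-0.29), Psmb9 (-0.35), C1s1 (-0.024), Gfap (-0.21) and Drd1 (0.016). Leaving out water replicate 9 as well gave Psmb9 -0.19, Gfap -0.20, Cd74 -0.035 and Drd1 0.016. Differences of group medians were reversed for Psmb9 (-0.11), C1s1 (-0.19), C3 (-0.21), Gfap (-0.068) and Drd1 (0.015), and voom reversed Gfap (-0.088) and Drd1 (0.014). With 1 library left out, Drd1 ranged from -0.044 to 0.018 and Fos from -0.018 to 0.13. Without the 3 libraries the difference in assigned reads was -0.0873 M and in reads outside genes 0.518 percentage points. The ambiguous share then differed most, by -0.0217 percentage points (permutation test, p = 0.0107, 0.0534 adjusted over the 5 measures). Of the list medians, 33 values moved by more than their spread, all in the immune, microglia and reactive astrocyte lists. No paired analysis was possible because nothing in the labels pairs the mice of the groups. Depth of at least 26.8 M assigned reads leaves genes under about 1 CPM with few reads.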
